A study of Mus musculus with 6 samples.

Results

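The Notch receptors and ligands examined here were the 4 mouse receptors (Notch1, Notch2, Notch3 and Notch4), the 5 canonical ligands (Dll1, Dll3, Dll4, Jag1 and Jag2) and the ligand-like protein Dlk1. They were taken by symbol from a fixed list, and all 10 were found, each as 1 row among the 21225 genes of the table. Expression was profiled in whole lungs of 3 RbpjkCNULL mice and 3 control mice at E18.5, on 1 Affymetrix Mouse Gene 1.0 ST array per lung. RbpjkCNULL lungs carried Shh-cre (heterozygous) together with floxed alleles of Rbpjk on both chromosomes, although another label calls them Rbpjk -/-. The labels of control lungs conflict, naming a wildtype genotype in one field and heterozygous Shh-cre in another. All lungs came from C57BL/6 mice and were cut off at the carina or beyond it, so the trachea was left out. Shh-cre acts in the epithelium, and vessels, mesenchyme and blood keep Rbpj. Whole lung mixes all of these cells, so a change confined to the airway epithelium is diluted, and fewer cells of a type cannot be told apart from less RNA per cell. The labels do not say whether the lungs of a condition came from separate litters, so p values measure the spread between these lungs.

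Notch receptors are single-pass membrane proteins that are activated by ligands on a neighbouring cell. Ligand binding leads to cleavage of the receptor, and the freed intracellular domain joins Rbpj on DNA to switch target genes on. In the mouse airway this signal favours the secretory fate over the ciliated and neuroendocrine fates, while in vessels it takes part in arterial identity and in the investment of vessels by mural cells. The comparison asks whether the components that send and receive the signal differed in level once Rbpj, which acts downstream of all 4 receptors, was ablated in the epithelium.

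The 6 arrays had medians of 6.43 to 6.50 on the log2 scale, and correlations between arrays across genes of 0.988 to 0.997. Alveolar type 2 markers averaged 10.7 to 11.1 per array and alveolar type 1 markers 9.87 to 10.1 (log2 levels). Rbpj, the targeted gene, had log2 values of 6.26, 6.17 and 6.18 in RbpjkCNULL lungs, against 6.45, 6.50 and 6.74 in control lungs, a difference of -0.36 (standard error 0.09, adjusted p = 0.21 from limma). The conditions differed in the sex of the embryos. Xist, which is made from the inactive X chromosome of females, was low in all 3 RbpjkCNULL lungs (4.13 to 4.28) and in control replicate 3 (4.91), and high in control replicates 1 and 2 (10.5 and 10.7). The arrays also differed in their lower quartiles, the 25th percentile of the log2 values. These were 5.03 to 5.11 in RbpjkCNULL replicate 1 and control replicates 1 and 3, and 4.87 to 4.89 in the other 3 arrays.

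Levels of Notch receptors and ligands lay close together in RbpjkCNULL and control lungs. None of the 10 genes passed limma at an adjusted p under 0.05 (0 higher and 0 lower), and 1 of 10, Jag1, had an unadjusted p under 0.05. The methods' t-test likewise passed 0 of 10 after adjustment (0.0377% of all genes passed it) and 1 of 10 before it. Over all genes limma called 270 at this threshold, or 1.27% of them, and 8.53% had an unadjusted p under 0.05. The log2 differences, RbpjkCNULL minus control, ran from -0.19 (Notch3) to 0.20 (Jag1), with a median of -0.06 against -0.05 for all genes. Of the 10 genes 7 had a negative difference and 3 a positive one, and 31.9% of all genes had a positive difference. These changes are small, and the arrays bound them rather than show that they are absent. The 95% intervals, as ratios of RbpjkCNULL to control, reached down to 0.748 (Notch3) and up to 1.29 (Jag1), and 9 of 10 held a difference of 0. Standard errors of the 10 genes lay between 0.06 and 0.11 (log2), around the median of 0.09 for all genes.

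**Figure D1:**
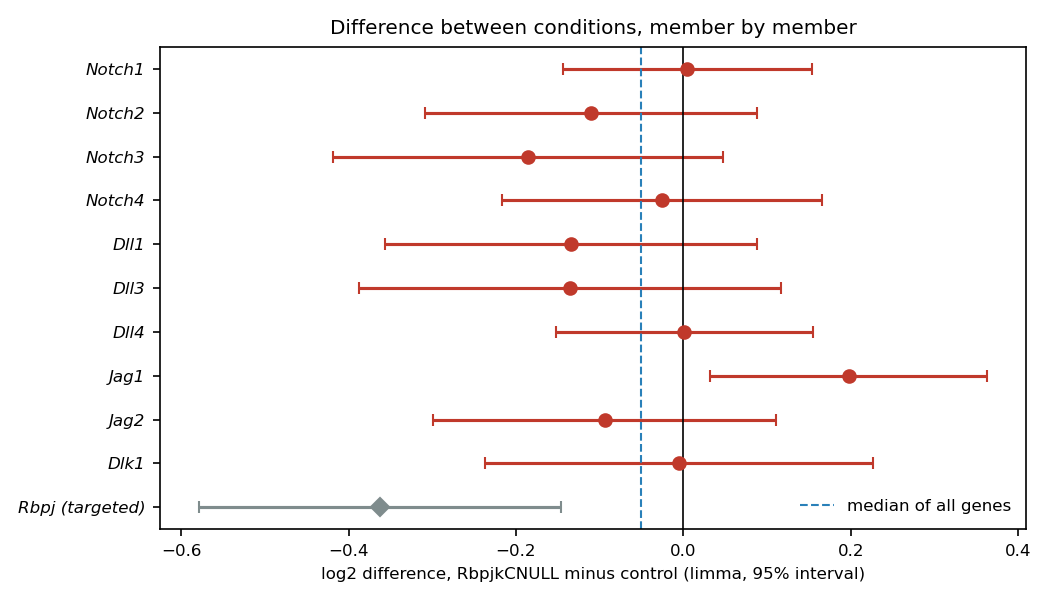
Difference in log2 expression between 3 RbpjkCNULL and 3 control lungs (horizontal axis) for each receptor and ligand and for Rbpj, with 95% intervals from limma. The intervals of all but Jag1 among the 10 genes cross 0, and the dashed line marks the median of all genes at -0.05.

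The genes lie on 5 chromosomes of the RefSeq annotation of GRCm38.p6, an assembly used here only for names, neighbours and sequence. Notch1, Dll4 and Jag1 are on chromosome 2, Dll1, Notch3 and Notch4 on chromosome 17, Jag2 and Dlk1 on chromosome 12, Notch2 on chromosome 3 and Dll3 on chromosome 7. RefSeq promoter windows of 300 bases (250 before and 50 after the annotated start) were found for all 10 genes, 11 windows in all, since Dll1 has more than 1 start. Their GC content ran from 52.0% (Dll3) to 86.0% (Jag2), with a median over all promoters of 52.7%. Rbpj recognises DNA with the core TGGGAA. These letters, searched on both strands, were in 0 of the 11 windows, and 25.6% of 32851 promoters hold them. The longer form GTGGGAA, which contains the core, was in 0 of the 11 windows as well and is held by 6.38% of promoters. The absence says only that these letters are not in these windows. The windows of Jag1 and Notch3, which had the highest and the lowest difference of the 10 genes, are given 5′ to 3′ on the minus strand, with the 50 bases from the annotated start onward in capitals (Jag1 at chr2:137116471-137116770 and Notch3 at chr17:32166841-32167140).
Jag1: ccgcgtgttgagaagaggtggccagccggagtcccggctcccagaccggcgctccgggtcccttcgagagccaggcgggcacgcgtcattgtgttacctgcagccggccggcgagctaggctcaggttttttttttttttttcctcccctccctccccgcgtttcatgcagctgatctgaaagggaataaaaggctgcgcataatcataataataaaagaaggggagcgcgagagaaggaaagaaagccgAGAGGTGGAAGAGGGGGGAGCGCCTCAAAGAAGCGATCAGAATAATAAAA
Notch3: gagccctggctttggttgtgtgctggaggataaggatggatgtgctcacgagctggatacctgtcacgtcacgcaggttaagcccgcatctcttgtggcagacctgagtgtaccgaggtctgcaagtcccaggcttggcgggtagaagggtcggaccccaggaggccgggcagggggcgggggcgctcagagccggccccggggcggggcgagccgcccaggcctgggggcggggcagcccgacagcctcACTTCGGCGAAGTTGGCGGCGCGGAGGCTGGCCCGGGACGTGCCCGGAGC

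Among the receptors, Notch1 varied least from lung to lung. Notch1, a receptor of many epithelial and endothelial cells, had log2 values of 8.94, 8.99 and 8.98 in RbpjkCNULL lungs, against 8.94, 8.99 and 8.97 in control lungs. The groups overlapped throughout, with a difference of 0.0048 (standard error 0.06, 95% interval -0.14 to 0.15, adjusted p = 0.987 from limma), and all 6 lungs lay within 0.06 of each other. Notch2, a receptor expressed in lung epithelium and mesenchyme, had 9.17, 9.25 and 9.33 in RbpjkCNULL lungs, against 9.23, 9.43 and 9.42 in control lungs. RbpjkCNULL replicate 1 was the lowest of all lungs and control replicate 1 the lowest of the controls, and the difference was -0.11 (standard error 0.08, interval -0.31 to 0.09, adjusted p = 0.76).

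Notch3 had the lowest difference and the widest spread over the 6 lungs, 0.41. This receptor is best known in pericytes and vascular smooth muscle and is also found in early airway progenitors. Its log2 values were 8.46, 8.59 and 8.73 in RbpjkCNULL lungs, against 8.63, 8.87 and 8.83 in control lungs. RbpjkCNULL replicates 1 and 2 lay below every control lung, and RbpjkCNULL replicate 3 lay above control replicate 1. The difference of -0.19 (standard error 0.10, interval -0.42 to 0.05) did not pass (adjusted p = 0.674 from limma; exact two-sided permutation test, p = 0.2, where 3 lungs against 3 allow no p under 0.1). Without RbpjkCNULL replicate 1 it was -0.12, and with the array's lower quartile as a covariate it was -0.28 (adjusted p = 0.254).
Notch4, a receptor largely restricted to endothelium, had 8.04, 7.92 and 8.01 in RbpjkCNULL lungs, against 7.98, 7.93 and 8.14 in control lungs. Its groups overlapped, with a difference of -0.03 (standard error 0.08, interval -0.22 to 0.17, adjusted p = 0.944). With the Xist level as a covariate it was -0.17 (standard error 0.11, adjusted p = 0.891), and in the 4 lungs with low Xist -0.15. Both values rest on the lone control with low Xist.

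The Delta-like ligands did not separate the conditions either. Dll1, a transmembrane ligand that in the lung is known from neuroendocrine cells, had log2 values of 5.95, 5.76 and 5.86 in RbpjkCNULL lungs, against 6.09, 5.82 and 6.06 in control lungs. Control replicate 2 fell among the RbpjkCNULL lungs, and the difference was -0.13 (standard error 0.10, interval -0.36 to 0.09, adjusted p = 0.739 from limma). Dll3, which stays mostly inside the cell and is known as a neuroendocrine gene, had 4.64, 4.45 and 4.50 in RbpjkCNULL lungs, against 4.86, 4.49 and 4.65 in control lungs. Every Dll3 value lay below the lower quartile of its own array (percentile 19.4 of gene means), so its level was low. Its groups overlapped, with a difference of -0.14 (standard error 0.11, interval -0.39 to 0.12, adjusted p = 0.766). Dll4, the ligand of arterial endothelium and of the tip cells of growing vessels, also varied little. It had 7.20, 7.23 and 7.30 in RbpjkCNULL lungs and 7.24, 7.22 and 7.26 in control lungs, with all control lungs inside the range of the RbpjkCNULL lungs and a difference of 0.0013 (standard error 0.07, interval -0.15 to 0.16, adjusted p = 0.997).

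Jag1 was the one gene of the 10 whose groups did not overlap. Jag1 is a transmembrane ligand of vessel walls, mesenchyme and airway epithelium. It had log2 values of 8.50, 8.54 and 8.57 in RbpjkCNULL lungs, against 8.27, 8.33 and 8.42 in control lungs, so every RbpjkCNULL lung was above every control lung. The ratio of RbpjkCNULL to control was 1.15 (95% interval 1.02 to 1.29), with a log2 difference of 0.20 (standard error 0.07, unadjusted p = 0.0252). It did not pass over all genes (adjusted p = 0.472 from limma; exact two-sided permutation test, p = 0.1, the smallest possible here). Of all genes 14.2% showed no overlap between the groups and 4.95% did so with RbpjkCNULL higher, so 1 of 10 is near the background. The control lung nearest to the RbpjkCNULL lungs was replicate 3, the control with low Xist. In the 4 lungs with low Xist the difference was 0.12, and with Xist as a covariate 0.10 (standard error 0.11, adjusted p = 0.928 from limma). Both values rest on that lone control, so they are not separate checks.
The second Jagged ligand, Jag2, which is known from basal cells of the airway and from endothelium, had 7.44, 7.55 and 7.69 in RbpjkCNULL lungs, against 7.73, 7.57 and 7.67 in control lungs. The groups overlapped, with a difference of -0.09 (standard error 0.09, interval -0.30 to 0.11, adjusted p = 0.796). The lowest Jag2 value was again that of RbpjkCNULL replicate 1, as for Notch1, Notch2, Notch3 and Dll4.

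Dlk1 is an imprinted gene of fetal tissue whose protein resembles the Delta-like ligands but lacks the domain by which they activate receptors. It had log2 values of 10.9, 10.7 and 10.7 in RbpjkCNULL lungs, against 10.8, 10.7 and 11.0 in control lungs. The control lungs spanned the whole range of the RbpjkCNULL lungs, and the difference was -0.0054 (standard error 0.10, interval -0.24 to 0.23, adjusted p = 0.99 from limma). It was -0.20 with the Xist covariate (standard error 0.13, adjusted p = 0.89) and -0.17 in the 4 low-Xist lungs. Both values rest on the lone control with low Xist. Of 5 measured genes of the Dlk1-Dio3 imprinted region, 0 passed limma (0 at an unadjusted p under 0.05, and 0 on both counts by the methods' t-test), and their median difference was -0.05. The noncoding RNA Meg3 had a difference of 0.16 (standard error 0.12) and Begain, a synaptic scaffold gene of that region, one of -0.20 (0.12).

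**Figure D2:**
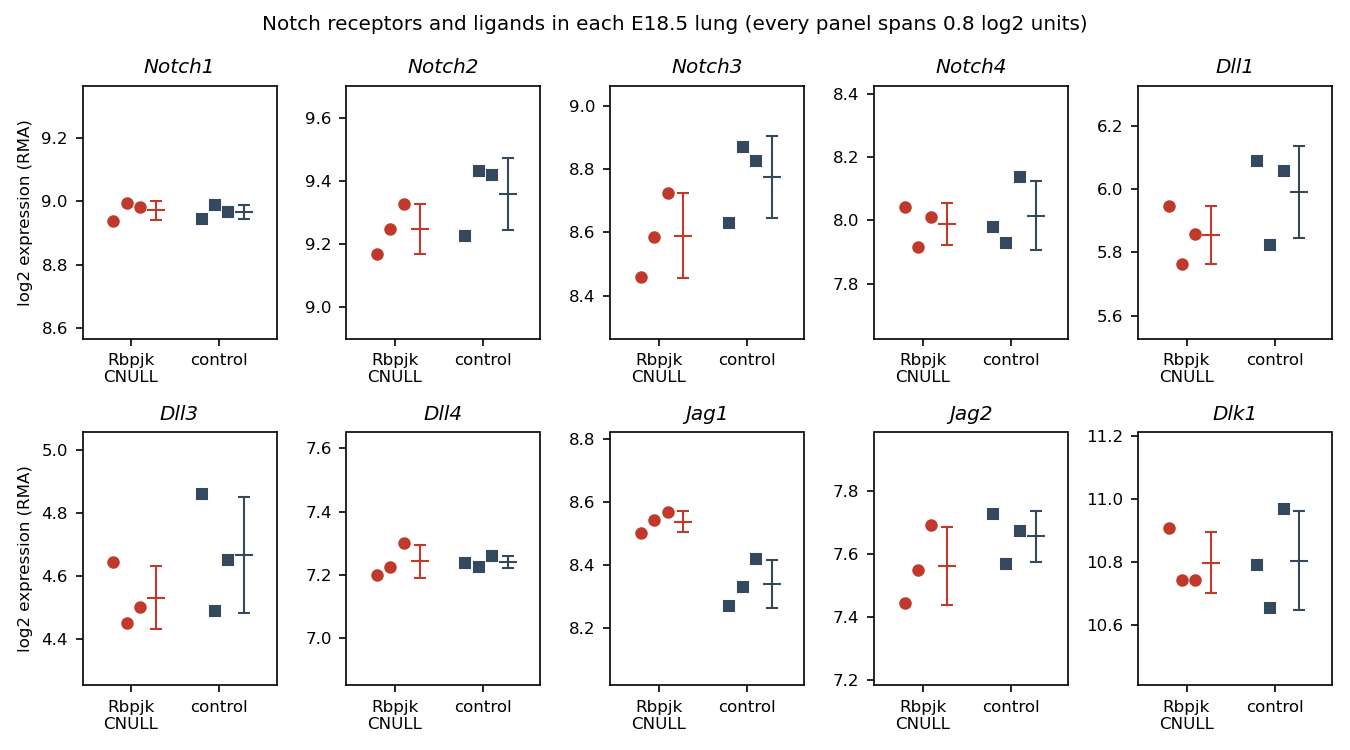
Log2 expression (vertical axis, RMA) of each receptor and ligand in 3 RbpjkCNULL lungs (circles) and 3 control lungs (squares), with the mean and SD of each group beside the points. Every panel spans the same 0.8 log2 units, and the groups are apart for Jag1 alone.

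For 4 of the 10 genes the lungs were apart by the lower quartile of the arrays, which is near the share over all genes (28.5%). Dll1, Dll3 and Dlk1 each had their 3 highest values on the 3 arrays with higher lower quartiles, which hold RbpjkCNULL replicate 1 and control replicates 1 and 3. For Dll1 these arrays had 5.95 to 6.09 and the other arrays 5.76 to 5.86, as levels on the log2 scale. For Dll3 the ranges were 4.64 to 4.86 and 4.45 to 4.50, and for Dlk1 10.79 to 10.97 and 10.65 to 10.74. Notch1 went the other way, with 8.94 to 8.97 on these 3 arrays and 8.98 to 8.99 on the others. Within the arrays with higher lower quartiles, RbpjkCNULL minus control was -0.13 for Dll1, -0.11 for Dll3 and 0.03 for Dlk1, and within the others it was -0.01, -0.01 and 0.09. Jag1 was higher in RbpjkCNULL lungs within each set, by 0.16 and 0.23, which any split gives where groups do not overlap. Notch3 was lower within each, with differences of -0.27 and -0.21. Each set holds a single lung of one condition, RbpjkCNULL replicate 1 on the arrays with higher lower quartiles and control replicate 2 on the others. With the lower quartile as a covariate the difference was -0.02 for Dll1 and -0.0038 for Dll3.

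**Figure D3:**
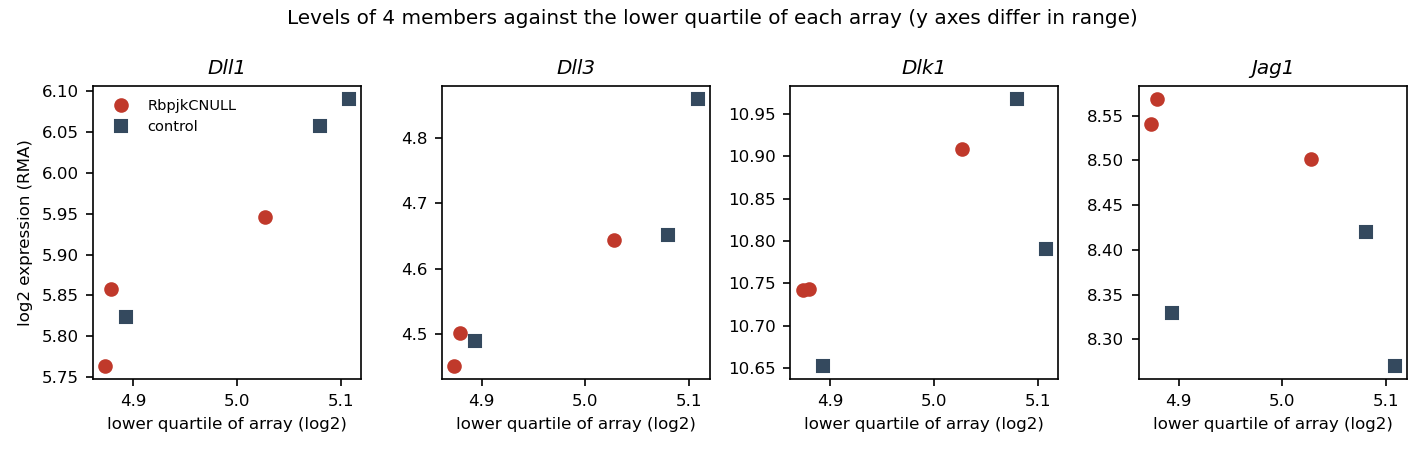
Log2 expression of Dll1, Dll3, Dlk1 and Jag1 (vertical axes, each with its own range) against the lower quartile of each array (horizontal axis, log2), for 3 RbpjkCNULL lungs (circles) and 3 control lungs (squares). Dll1, Dll3 and Dlk1 are higher on the 3 arrays to the right. Jag1 is higher in RbpjkCNULL lungs on either side, which any split gives where groups do not overlap.

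Beyond the receptors and ligands, the pathway gave no call. Of 58 other pathway genes measured, 0 passed limma (3 at an unadjusted p under 0.05, all lower, and by the methods' t-test 0 and 5), with a median log2 difference of -0.04. Over all 21225 genes limma had 1055 lower at an unadjusted p under 0.05, and the methods' t-test gave 8 and 1769. Among the 10 further ligand-like proteins, 0 passed and 0 had an unadjusted p under 0.05. Their differences ran from -0.35 to 0.06, with 3 of 10 positive, and the 2 lowest were those of Thbs2, a matrix protein that binds Notch3 and Jag1, at -0.35 (standard error 0.18), and Cntn1, a contactin, at -0.16 (0.08). Thbs2 had its lowest value in RbpjkCNULL replicate 1 (6.53), as Notch1, Notch2, Notch3, Dll4 and Jag2 did. Of 16 genes of ligand and receptor ubiquitylation and endocytosis, 0 passed and 1 had an unadjusted p under 0.05. It was Numbl, an adaptor that restrains Notch, with 6.92, 7.08 and 6.95 in RbpjkCNULL lungs, against 7.16, 7.18 and 7.27 in control lungs (difference -0.22, standard error 0.08, adjusted p = 0.438). Neurl1b, a ubiquitin ligase of ligands, had a difference of -0.18 (0.08).
Of 13 genes of glycosylation and proteolytic processing, 0 passed and 1 had an unadjusted p under 0.05. Rfng, a fringe glycosyltransferase that modifies the receptors, had 7.19, 7.08 and 7.15 in RbpjkCNULL lungs, against 7.38, 7.40 and 7.27 in control lungs (difference -0.21, standard error 0.07, adjusted p = 0.46). Aph1b, a subunit of gamma-secretase, had the highest difference of the list, 0.17 (0.09). In the nuclear complex 0 of 12 passed and 1, Rbpj itself, had an unadjusted p under 0.05, while the coactivator Maml2 had a difference of -0.12 (0.08).

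Transcriptional targets, which report the output of the pathway in all cells together, did not pass either. Of 7 measured, 0 passed limma, 0 had an unadjusted p under 0.05, and both counts were 0 by the methods' t-test, with a median difference of -0.10. Hes1, a repressor switched on by Notch in many tissues, had 8.52, 8.65 and 8.76 in RbpjkCNULL lungs and 8.53, 8.63 and 8.66 in control lungs, with a difference of 0.04 (standard error 0.08, adjusted p = 0.916). The groups overlapped fully. Hey1, a target of arterial endothelium, had a difference of 0.07 (0.09) and Heyl, a target of vascular smooth muscle, one of -0.08 (0.10). Nrarp, a feedback inhibitor, had 6.85, 7.26 and 7.33 in RbpjkCNULL lungs, against 7.22, 7.40 and 7.32 in control lungs (difference -0.17, standard error 0.13). Its lowest value was that of RbpjkCNULL replicate 1, without which the difference was -0.02 (0.09). Without RbpjkCNULL replicate 2 the Nrarp difference was -0.22 (0.15) and without replicate 3 it was -0.26 (0.14). With the lower quartile of the array as a covariate it was -0.32 (0.11, adjusted p = 0.278 from limma). Hes5 had the lowest difference of the targets, -0.19 (0.09, adjusted p = 0.628).

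Markers of the cells that carry these receptors and ligands were set beside them. Endothelial markers, beside which Notch4 and Dll4 stand, averaged 9.03 to 9.08 in RbpjkCNULL lungs and 9.04 to 9.13 in control lungs (log2 levels), with 0 of 15 passing limma, 0 at an unadjusted p under 0.05 and a median difference of 0.02. Arterial markers had 0 of 8 on both counts and a median of 0.03, with the transcription factor Sox17 at 0.19 (standard error 0.10) and the ephrin Efnb2 at 0.09 (0.07). Among other endothelial genes, the transcription factor Sox18 had -0.16 (0.08) and the sialomucin Emcn -0.09 (0.07). Markers of pericytes and smooth muscle, beside which Notch3 stands, averaged 7.54, 7.85 and 7.79 in RbpjkCNULL lungs, against 7.84, 7.89 and 7.85 in control lungs. RbpjkCNULL replicate 1 had the lowest mean of these markers and the lowest Notch3. It was also lowest for Notch1, Notch2, Dll4 and Jag2, but not for Notch4, Dll1, Dll3, Jag1 or Dlk1. Of 10 markers 0 passed and 1 had an unadjusted p under 0.05, the contractile protein Cnn1 with a difference of -0.42 (0.10, adjusted p = 0.19), and the smooth muscle myosin Myh11 had -0.25 (0.19). The median of this list was -0.13, with 1 of 10 positive, against -0.05 and 31.9% positive for all genes. The part of these cells in the values of Notch3 was not tested.
Neuroendocrine markers, beside which Dll1 and Dll3 stand, averaged 5.20 to 5.32 in RbpjkCNULL lungs and 5.31 to 5.44 in control lungs (log2 levels). Their median difference was -0.11, with 2 of 18 positive. Of 18 measured 0 passed and 2 had an unadjusted p under 0.05, the vesicle protein Rab3c with a difference of -0.37 (0.08, adjusted p = 0.0995) and the ubiquitin hydrolase Uchl1 with -0.28 (0.10, adjusted p = 0.438). Pan-epithelial markers had a median of -0.02, with 0 of 11 passing and 2 at an unadjusted p under 0.05, the keratin Krt8 at 0.30 (0.10) and the epithelial transcription factor Elf3 at -0.25 (0.09).

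The same lungs differed widely in other airway genes. Of 13 airway secretory markers 12 fell (0.113% of all genes were lower at this threshold), and of 20 ciliated markers 16 rose (1.16% of all genes were higher). Most of the secretory markers were picked by the study for their fall on these same arrays, which fixes their direction. The methods' t-test passed 0 and 2 of the secretory and ciliated markers after adjustment and 13 and 18 before it, in either direction. Over all 21225 genes it passed 8 (0.0377%) after adjustment and 1769 before it. The 13 secretory markers at an unadjusted p under 0.05 include Aldh1a1, which had a positive difference of 0.72 and did not pass (adjusted p = 0.0805 from limma). With the Xist level as a covariate 0 genes of the whole table passed limma (1418 at an unadjusted p under 0.05). Between conditions that fit rests on the lone control with low Xist. Scgb1a1, the secretoglobin of Clara cells, had 4.46, 4.03 and 5.88 in RbpjkCNULL lungs, against 10.2, 9.71 and 10.6 in control lungs. Rsph4a, a radial spoke protein of motile cilia, had 8.22, 8.21 and 8.14 in RbpjkCNULL lungs, against 6.95, 6.88 and 7.01 in control lungs, a difference of 1.24 (standard error 0.07, adjusted p = 0.00121 from limma). The interval of no receptor or ligand reached a difference of 0.5 in either direction, whereas the medians of these lists were -1.31 and 0.88.

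**Figure D4:**
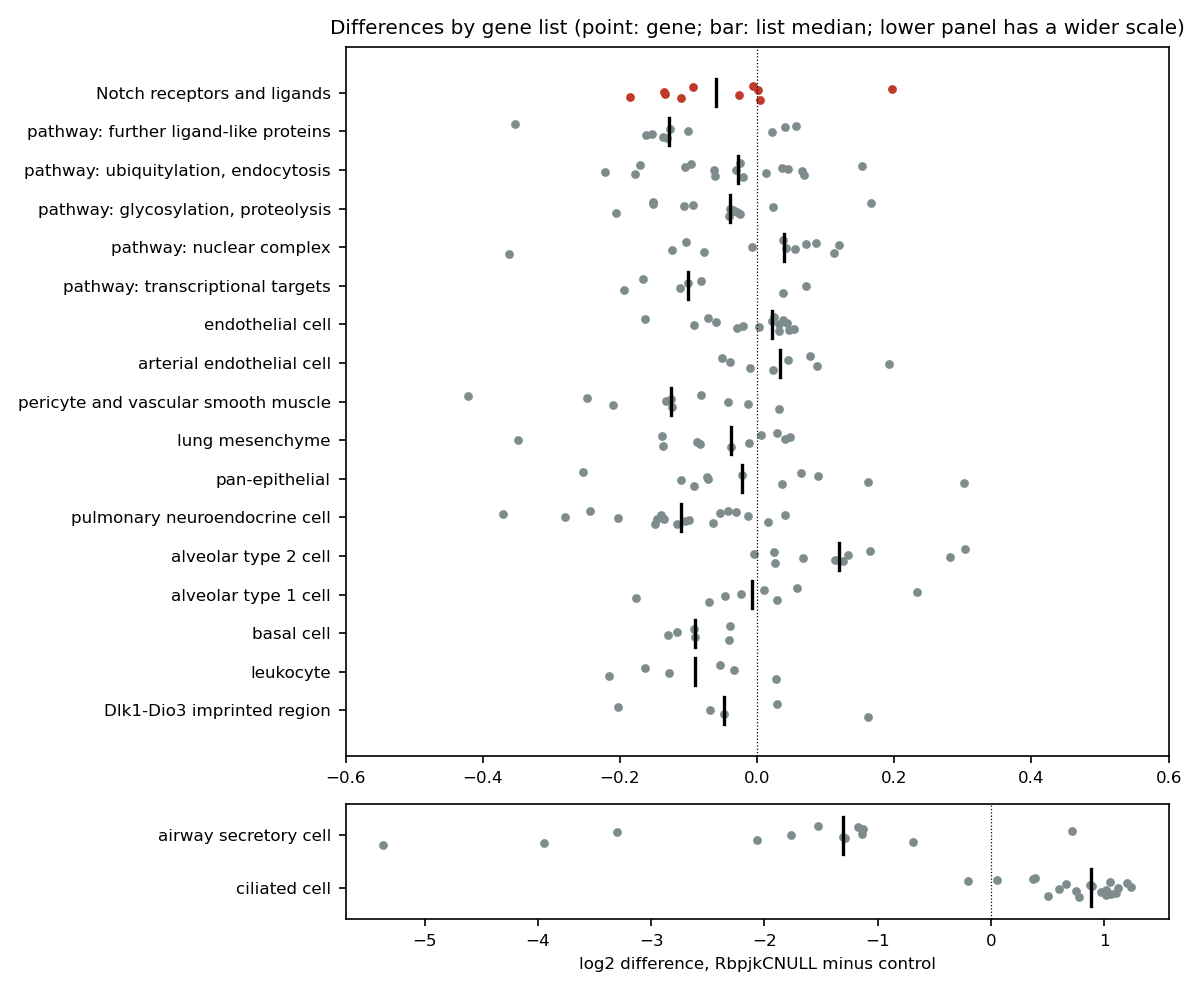
Log2 difference between RbpjkCNULL and control lungs (horizontal axis) for each gene (points) of the Notch receptors and ligands, of the other pathway lists and of cell type lists, with list medians as bars. The Notch receptors and ligands lie between -0.19 and 0.20, and the lower panel, on a wider scale, holds the secretory and ciliated markers with medians of -1.31 and 0.88.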

How the data were processed

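RNA of 3 RbpjkCNULL and 3 control lungs at E18.5 was hybridised to Affymetrix Mouse Gene 1.0 ST arrays, each lung on its own array. The deposited values are log2 values that the authors made by RMA, which corrects background, aligns arrays by quantiles and summarises probes by median polish, under R 2.12.0 and with probes grouped by Entrez Gene. They were used as they stand. Of 21225 genes, 20239 had 1 symbol, 0 had several and 986 had none. Levels were compared between lungs within a gene or list, except that Dll3 was also set against all genes to call its level low.

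The conditions were tested by limma 3.58.1 in R 4.3.3 (lmFit, then eBayes with no trend) on all genes, with Benjamini-Hochberg adjustment over all genes and a threshold of 0.05. Single genes were also compared by an exact permutation test over 20 assignments. Promoter sequences are from RefSeq (GRCm38.p6). The test was tried on simulated data with known changes. Receptors, ligands, lists and tests were chosen with earlier results of these data known. Genes eligible for naming were the 10 genes, Rbpj, Xist, 4 targets and, from each other list, at most 4 that passed, largest change first. Where none of a list passed, the 2 with the largest absolute difference were eligible. Not all of these are given, and Aldh1a1 is named outside this rule. Genes of like pattern were sought only for those of the 10 with a range of at least 0.5 (0 genes). The settings tried beside this were a Student t-test as in the methods, eBayes with a trend or robust, arrays rescaled by their median, by quantiles or by cyclic loess, dim genes dropped (lowest 25 percent, or all under the median), a block for the replicate number, a covariate for Xist or the lower quartile, and each array left out in turn. The low-Xist lungs alone were added after seeing the data. The number of arrays limits the precision. Listed genes that matched no row were not analysed here.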

Additional observations from a re-analysis of the deposited data

How the results depend on the processing

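Under all 18 alternatives 0 of the 10 Notch receptors and ligands and 0 of the 58 other pathway genes passed an adjusted p under 0.05, where 0 to 2 and 2 to 9 had an unadjusted p under 0.05. The filters left out Dll3 (25th percentile) and Dll1 and Dll3 (median). Notch2, Notch3, Dll1, Dll3, Jag1 and Jag2 kept their sign under each alternative that measured them, and Jag1 ran from 0.10 to 0.24 with adjusted p from 0.249 to 0.928. Notch1, Notch4, Dll4, Dlk1, Hes1, Hey1, Heyl and Meg3 changed sign under some alternatives, and none of these passed under any. Under quantile scaling Notch1 had -0.0056, and under median centring Dlk1 had 0.013. With the lower quartile covariate Notch1 had -0.019, Notch4 0.030, Dll4 -0.0056, Dlk1 0.10 and Hes1 -0.018. With the Xist covariate Dll4 had -0.023, Hes1 -0.030, Hey1 -0.020, Heyl 0.012 and Meg3 -0.11, and in low-Xist lungs alone, where the lone control is assumed to vary like the others, Dll4 had -0.018, Hes1 -0.020, Hey1 -0.0020 and Meg3 -0.069. Leaving out 1 array gave differences of -0.0067 to 0.022 for Notch1, -0.070 to 0.035 for Notch4, -0.028 to 0.022 for Dll4, -0.081 to 0.076 for Dlk1, -0.021 to 0.098 for Hes1 and -0.14 to 0.013 for Heyl.

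The count over all genes moved more. Instead of 270 (246 higher, 24 lower), the methods' t-test passed 8 (1769 at an unadjusted p under 0.05), the Xist covariate 0 (1418) and low-Xist lungs alone 0 (1833). Leaving out 1 array gave 139 (without RbpjkCNULL replicate 2) to 236, with 148 without RbpjkCNULL replicate 3. With the lower quartile covariate 325 passed, 62 of them lower. The scalings moved the median of all genes by at most 0.05. Same-numbered lungs deviated from their group means with correlations of 0.49, 0.31 and -0.09, so the numbers were not taken to pair them. With the replicate block 304 genes passed, with 0 receptors and ligands. The cause of these moves was not tested. The counts with the Xist covariate and in low-Xist lungs alone rest on the lone control with low Xist.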
